A study of Mus musculus with 16 samples.

Results

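A set of 40 genes of the cell cycle, 19 that act in DNA replication and 21 that act in mitosis, was followed in sorted epithelial cells of the mouse distal colon. The genes were chosen by symbol from a list of proliferation genes, and all 40 were found among the 21442 genes of the count table and passed the filter on low counts that left 12915 genes for testing. RNA was sequenced from 16 libraries, 4 in each of 4 groups. Goblet cells (GC), the mucus-secreting cells of the gut, were collected by flow sorting as mCherry-positive cells, and the rest of the epithelium (EC) as the mCherry-negative fraction. The groups were goblet cells of Spdef-/- RedMUC298trTg mice (SpdefKO_GC), goblet cells of RedMUC298trTg mice (WT_GC), other epithelium of Spdef-/- RedMUC298trTg mice (SpdefKO_EC) and other epithelium of RedMUC298trTg mice (WT_EC). All of these mice carried the RedMUC298trTg reporter and were 6–8 weeks old, and the labels name no treatment. No source used here gives the sequence that drives the reporter or says whether mice were pooled or each library was a mouse of its own, so a p-value below reflects library-to-library spread, which may be technical.

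Before a cell divides it copies its DNA in S phase and then separates the copies in M phase. The genes of DNA replication are transcribed mainly as cells pass from G1 into S phase, largely under E2F transcription factors. The genes of mitosis are transcribed later, in G2 and M phase, from promoters that often carry a CCAAT box and a short element called the cell cycle genes homology region (CHR), under FOXM1, B-MYB and the MuvB complex. In the colon, dividing cells lie in the lower crypt, where they include stem cells, absorptive progenitors and immature secretory cells, whereas mature goblet cells do not divide.

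Promoters are described as background to both lists, and their part in the genotype results below was not tested. RefSeq promoters on GRCm38.p6, each running from 250 bases before to 50 bases after the start, were matched by symbol for 32 of the 40 genes, 15 of replication and 17 of mitosis. An E2F-type word (TTTCGCGC, TTTGGCGC, TTCCCGCC or TTTCCCGC, either strand) was present in 8 of the 15 replication promoters (53.3%), 1 of the 17 mitosis promoters (5.88%) and 4.0% of all 27025 promoters. A CHR-type word (TTTGAA or TTCGAA, either strand) was present in 3 of the 15 replication promoters, 13 mitosis promoters (76.5%) and 21.7% of all promoters. A CCAAT box (CCAAT, either strand) was present in 10 replication promoters (66.7%), 15 mitosis promoters (88.2%) and 41.1% of all promoters. These shares are descriptions of letters in a window, and no binding was measured. Overlapping matches were counted once per promoter. Mitosis genes with and without these words were found both among the called and among the uncalled genes described below. A call is a threshold, and all 21 mitosis genes had estimates above 0 in both fractions, so this split was not a test of the words. Cenpe, called in both fractions, has a CCAAT box and no CHR-type word, and Nusap1, called in the other epithelium, has no matched word. Top2a, Bub1, Bub1b, Kif11 and Prc1, called in neither fraction, have both a CCAAT box and a CHR-type word.

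Examples of each arrangement follow, chosen after their letters were seen, with matched words in capitals. Mcm6 (chr1:128359656-128359955, minus strand) and Rrm1 (chr7:102441445-102441744, plus strand) are replication genes with E2F-type words, and Cdk1 (chr10:69352863-69353162, minus strand) is the mitosis gene that has both an E2F-type and CHR-type words. Mki67 (chr7:135716330-135716629, minus strand), Plk1 (chr7:122159185-122159484, plus strand) and Kif23 (chr9:61946750-61947049, minus strand) have CCAAT boxes and CHR-type words and no E2F-type word.
Mcm6: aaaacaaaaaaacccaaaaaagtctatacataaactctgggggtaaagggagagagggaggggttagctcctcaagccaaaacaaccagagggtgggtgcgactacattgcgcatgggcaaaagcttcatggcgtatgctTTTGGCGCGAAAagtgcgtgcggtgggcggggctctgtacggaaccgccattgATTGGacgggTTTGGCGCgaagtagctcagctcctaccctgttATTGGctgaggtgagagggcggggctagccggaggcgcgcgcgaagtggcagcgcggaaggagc
Rrm1: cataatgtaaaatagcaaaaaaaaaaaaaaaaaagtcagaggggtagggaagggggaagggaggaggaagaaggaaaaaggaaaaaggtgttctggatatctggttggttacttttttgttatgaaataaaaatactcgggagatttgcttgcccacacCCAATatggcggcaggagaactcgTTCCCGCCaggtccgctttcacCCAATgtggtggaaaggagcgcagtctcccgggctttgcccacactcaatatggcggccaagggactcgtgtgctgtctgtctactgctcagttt
Cdk1: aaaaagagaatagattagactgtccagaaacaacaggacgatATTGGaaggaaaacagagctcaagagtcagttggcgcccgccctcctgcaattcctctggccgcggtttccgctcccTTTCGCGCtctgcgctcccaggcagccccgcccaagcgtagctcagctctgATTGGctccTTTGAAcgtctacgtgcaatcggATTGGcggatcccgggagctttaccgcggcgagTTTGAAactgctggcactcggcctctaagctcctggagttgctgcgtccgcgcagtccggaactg
Mki67: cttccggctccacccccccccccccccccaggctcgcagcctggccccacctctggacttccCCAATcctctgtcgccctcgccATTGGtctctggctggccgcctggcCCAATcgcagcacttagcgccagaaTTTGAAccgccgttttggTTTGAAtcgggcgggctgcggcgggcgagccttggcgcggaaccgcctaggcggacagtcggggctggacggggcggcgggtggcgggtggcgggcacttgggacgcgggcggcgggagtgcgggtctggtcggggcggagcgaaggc
Plk1: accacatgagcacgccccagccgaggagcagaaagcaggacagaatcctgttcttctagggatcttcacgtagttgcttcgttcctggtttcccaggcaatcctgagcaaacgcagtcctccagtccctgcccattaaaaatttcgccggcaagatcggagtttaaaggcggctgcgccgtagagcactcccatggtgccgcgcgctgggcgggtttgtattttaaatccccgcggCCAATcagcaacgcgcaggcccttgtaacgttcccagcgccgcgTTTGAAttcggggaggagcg
Kif23: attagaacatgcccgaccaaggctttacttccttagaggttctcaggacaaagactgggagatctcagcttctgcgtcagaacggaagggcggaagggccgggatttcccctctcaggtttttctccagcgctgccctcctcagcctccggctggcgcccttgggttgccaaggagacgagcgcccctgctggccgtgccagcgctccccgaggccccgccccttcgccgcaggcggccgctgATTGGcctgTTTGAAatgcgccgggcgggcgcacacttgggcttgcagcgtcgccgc
In Mcm6, a pair of overlapping E2F-type words begin 110 and 106 bases before the start and another 47 bases before it. In Cdk1, CHR-type words begin 71 and 15 bases before the start, and the E2F-type word 131 bases before it. In Kif23, a CCAAT box begins 7 bases before the start and a CHR-type word 2 bases after it. These positions count from the RefSeq start. The GENCODE annotation begins Mcm6, Cdk1 and Kif23 at other bases (128359664, 69352938 and 61946774), so the distances depend on the annotation.

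Libraries held between 10085637 and 17111987 counts over genes, and levels are given as CPM, gene counts scaled to the total of the library over all genes. A gene is said to have risen, fallen or been called where its edgeR quasi-likelihood test gave a Benjamini-Hochberg adjusted p under 0.05 over all genes tested. Log2 fold changes are given ± an approximate standard error. Libraries are known by S numbers, and values are listed in the order S3, S5, S7 and S19 for SpdefKO_GC, S9, S11, S13 and S18 for WT_GC, S4, S6, S8 and S20 for SpdefKO_EC, and S10, S12, S14 and S17 for WT_EC. Spdef itself, the gene named in the genotype, averaged 385 ± 69.6 CPM in SpdefKO_GC and 306 ± 19 CPM in WT_GC (SD, n = 4 each), and was not called in either fraction (adjusted p = 0.116 in goblet cells and 0.559 in other epithelium). The count therefore does not check the genotype, and SpdefKO below means a library labelled as such. Summed goblet cell markers, 12 of 12 in the table, lay at 48900–57400 CPM in SpdefKO_GC against 44700–49100 in WT_GC, and at 480–521 CPM in SpdefKO_EC against 502–713 in WT_EC, so their sum was far higher in the sorted goblet cells. By marker, 11 of the 12 log2 fold changes were above 0 in WT_GC against WT_EC, and 12 in SpdefKO_GC against SpdefKO_EC. Between the genotypes, 8 were above 0 and 4 below in goblet cells, and 4 above and 8 below in other epithelium. Libraries S3 to S8 were all SpdefKO and S9 to S14 all WT, so over those numbers genotype and library order cannot be told apart.

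Per kilobase of exon, the highest mean levels over the 16 libraries were those of Mki67 at 56.6, Pcna at 47.2, Top2a at 39.4, Ccnb2 at 34.4 and Ccna2 at 33.9 CPM per kilobase. E2f1, the activator E2F factor, was the lowest at 1.32 CPM per kilobase. Among the mitosis genes the median level per kilobase was 16.8 in SpdefKO_GC against 11.2 in WT_GC, and 14.3 in SpdefKO_EC against 8.2 in WT_EC. Among the replication genes it was 8.84 in SpdefKO_GC against 7.78 in WT_GC, and 7.01 in SpdefKO_EC against 6.47 in WT_EC.

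**Figure D1:**
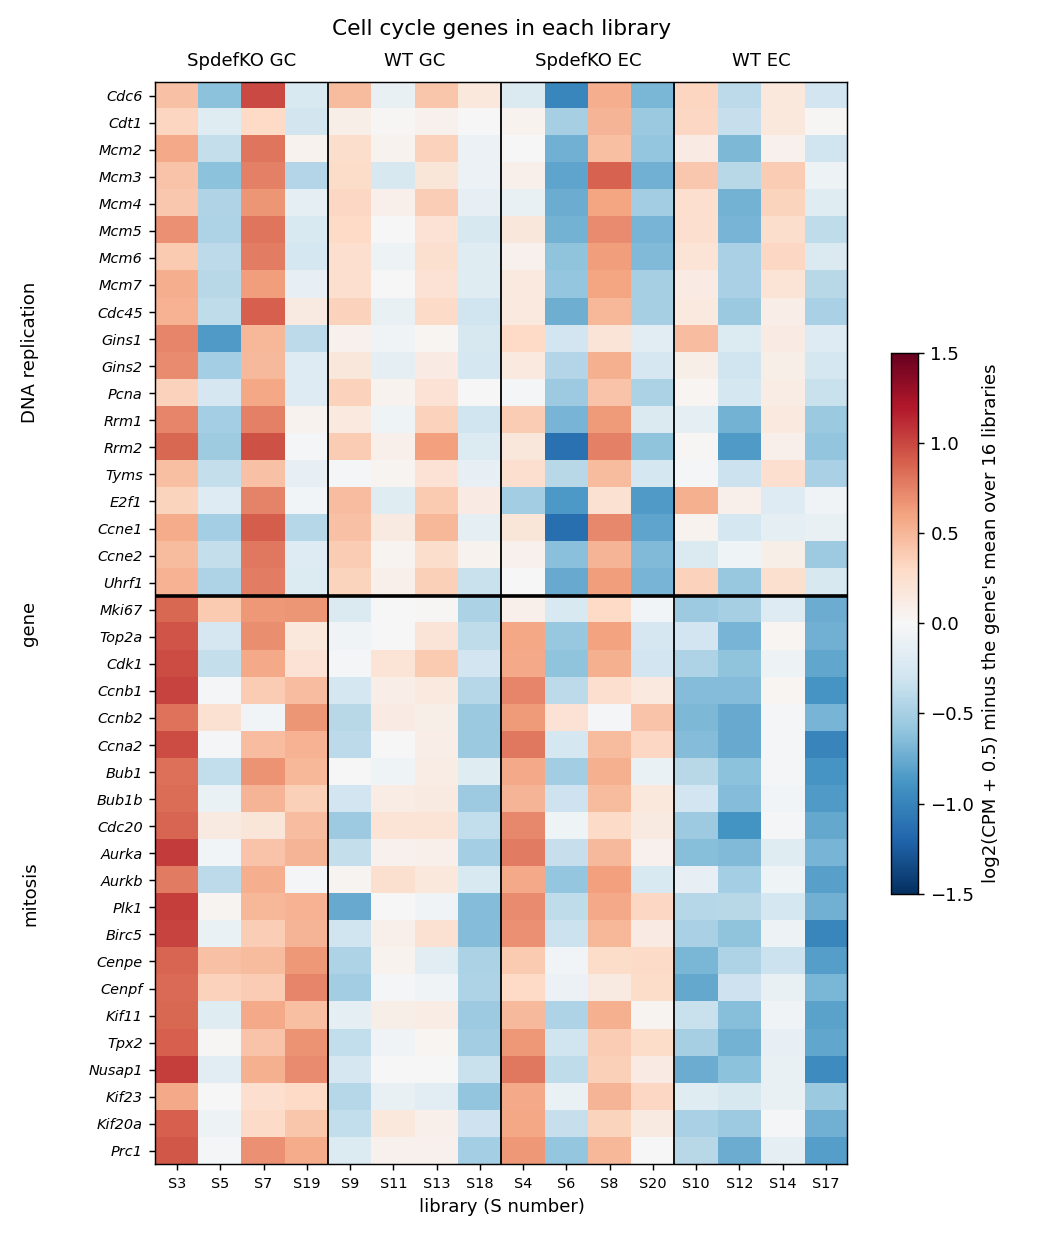
Level of each of the 40 genes (rows) in each library (columns, S number), as log2(CPM + 0.5) minus the gene's mean over the 16 libraries, with replication genes above the black line and mitosis genes below it. The mitosis genes of S3 are the reddest block, S5 and S6 are blue for replication genes, and S7 and S8 are red for them.

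In goblet cells, 6 of the 21 mitosis genes rose with the SpdefKO label and none fell, while none of the 19 replication genes was called in either direction. Of all genes tested, 10.4% were called higher and 11% lower in this comparison. The median log2 fold change was 0.62 over the mitosis genes, all 21 of which had an estimate above 0, against 0.10 over the replication genes (-0.05 without SpdefKO_GC S7) and 0.001 over all genes tested. The 6 genes that rose were Mki67, Plk1, Cenpe, Cenpf, Tpx2 and Kif23. In these sorted bulk samples, a change in the number of dividing cells and a change in RNA per cell cannot be told apart.

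In the other epithelium, 11 of the 21 mitosis genes rose with the SpdefKO label and none fell, and again none of the 19 replication genes was called. Of all genes tested, 6.09% were called higher and 6.54% lower here. The median log2 fold change was 0.78 over the mitosis genes, all 21 with an estimate above 0, against 0.08 over the replication genes (-0.19 without SpdefKO_EC S8 and -0.02 without WT_EC S12) and 0.005 over all genes. The genes that rose were Mki67, Ccnb2, Ccna2, Cdc20, Aurka, Plk1, Cenpe, Cenpf, Tpx2, Nusap1 and Kif23, which include all 6 that rose in goblet cells. These 6 are 100% of the goblet cell calls and 54.5% of those in the other epithelium. As shown further on, goblet cell and epithelial libraries paired by S number varied together, so the comparisons in both fractions are not separate evidence.

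Among the replication genes, Cdc6 and Cdt1 load the replicative helicase onto origins. Cdt1 was at 27.6, 19.4, 27.2 and 18.1 CPM in SpdefKO_GC, against 23.4, 22.3, 23.0 and 22.1 CPM in WT_GC. It was at 22.9, 15.4, 31.4 and 14.8 CPM in SpdefKO_EC, against 27.4, 17.2, 24.5 and 22.3 CPM in WT_EC. In both fractions the SpdefKO libraries lay on both sides of the WT range, with S5, S19, S6 and S20 low, and the estimates were 0.01 ± 0.21 in goblet cells and -0.06 ± 0.21 in the other epithelium. Those of Cdc6 were 0.006 ± 0.35 and -0.15 ± 0.36.

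Mcm2 to Mcm7 encode the helicase itself, whose 6 subunits act as one ring. Mcm6 was at 122, 70.5, 159 and 77.3 CPM in SpdefKO_GC, against 111, 88.2, 110 and 82.0 CPM in WT_GC. It was at 97.4, 60.9, 144 and 58.7 CPM in SpdefKO_EC, against 107, 65.9, 115 and 79.6 CPM in WT_EC. S7 and S8 were the highest libraries of their fractions, S5 and S20 the lowest, and the WT values lay between them. The log2 fold changes of the 6 subunits ran from -0.0031 to 0.21 in goblet cells and from -0.033 to 0.16 in the other epithelium.

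Cdc45, Gins1 and Gins2 encode parts that switch the loaded helicase on. Cdc45 was at 21, 11, 27.3 and 15.9 CPM in SpdefKO_GC, against 18.5, 13.4, 17.8 and 11.7 CPM in WT_GC. It was at 16.1, 8.54, 20.6 and 10.1 CPM in SpdefKO_EC, against 16.1, 9.73, 15.6 and 10.2 CPM in WT_EC. S7 and S8 were again highest and S5 and S6 lowest, and the groups overlapped. The log2 fold changes of the 3 genes were 0.19 to 0.27 in goblet cells and -0.0078 to 0.19 in the other epithelium.

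Pcna, the sliding clamp of DNA polymerases, was at 141, 92.9, 165 and 96.5 CPM in SpdefKO_GC, against 140, 115, 128 and 110 CPM in WT_GC. It was at 108, 75.6, 149 and 79.2 CPM in SpdefKO_EC, against 113, 91.8, 119 and 87.4 CPM in WT_EC. The means coincided, with 124 ± 35.3 CPM in SpdefKO_GC and 123 ± 13.8 CPM in WT_GC, and 103 ± 34.0 CPM in SpdefKO_EC and 103 ± 15.6 CPM in WT_EC (SD, n = 4 each). Pcna, Tyms, Ccnb1 and Ccnb2 have named pseudogenes that could share reads, so their levels are uncertain. Rrm1 and Rrm2, the subunits of ribonucleotide reductase, which supplies deoxynucleotides, and Tyms, which makes thymidylate, had estimates of 0.28, 0.17 and 0.10 in goblet cells and of 0.45, 0.32 and 0.23 in the other epithelium.

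Ccne2, a cyclin that drives entry into S phase with CDK2, was at 22.9, 12.7, 28.8 and 14.3 CPM in SpdefKO_GC, against 21.5, 16.9, 19.8 and 17 CPM in WT_GC. It was at 17.1, 10.4, 23.5 and 10.2 CPM in SpdefKO_EC, against 14, 15.6, 17.5 and 11.1 CPM in WT_EC. Uhrf1, which recruits the maintenance DNA methyltransferase to newly copied DNA, was at 86.6, 43.5, 103 and 52.3 CPM in SpdefKO_GC, against 76.4, 63.5, 77.6 and 47.9 CPM in WT_GC. It was at 60.1, 35.6, 93.5 and 36.9 CPM in SpdefKO_EC, against 76.7, 40.6, 71.4 and 51.0 CPM in WT_EC. For both genes the groups overlapped, with S7 and S8 the highest libraries of their fractions. The estimates of Ccne2, Uhrf1 and Ccne1, the other cyclin E, were 0.05, 0.09 and -0.02 in goblet cells and 0.13, -0.03 and 0.12 in the other epithelium.

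E2f1 had the lowest estimate of the 40 genes, -0.57 ± 0.29 in the other epithelium, where it averaged 2.81 ± 1.31 CPM in SpdefKO_EC and 4.35 ± 1.12 CPM in WT_EC (SD, n = 4 each, adjusted p = 0.21). It was called lower when SpdefKO_EC S8 was left out and in no other setting run. No replication gene had an unadjusted p under 0.05 in either genotype comparison, where 34.5% of all genes did in goblet cells and 28.1% in the other epithelium, and the lowest adjusted p was 0.552 in goblet cells and 0.21 in the other epithelium. DESeq2, limma-voom and the other settings that used all libraries also called none of the 19. The approximate standard errors of these genes were 0.21 to 0.39 in goblet cells and 0.21 to 0.40 in the other epithelium, so changes of the size seen for mitosis genes were not well resolved for several of them.

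Mki67 encodes Ki-67, the coat of mitotic chromosomes and the usual proliferation marker. It was at 980, 708, 850 and 855 CPM in SpdefKO_GC, against 466, 541, 548 and 390 CPM in WT_GC. All 4 SpdefKO_GC libraries lay above all 4 WT_GC libraries, and Mki67 rose 1.74-fold (log2 fold change 0.80 ± 0.13, adjusted p = 0.000337). It was at 573, 461, 666 and 525 CPM in SpdefKO_EC, against 371, 382, 473 and 323 CPM in WT_EC. There its log2 fold change was 0.57 ± 0.13, a rise that passed the test (adjusted p = 0.00944), with SpdefKO_EC S6 just below WT_EC S14. Top2a, the topoisomerase that untangles sister chromatids, had estimates of 0.49 in goblet cells and 0.61 in the other epithelium and was not called.

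**Figure D2:**
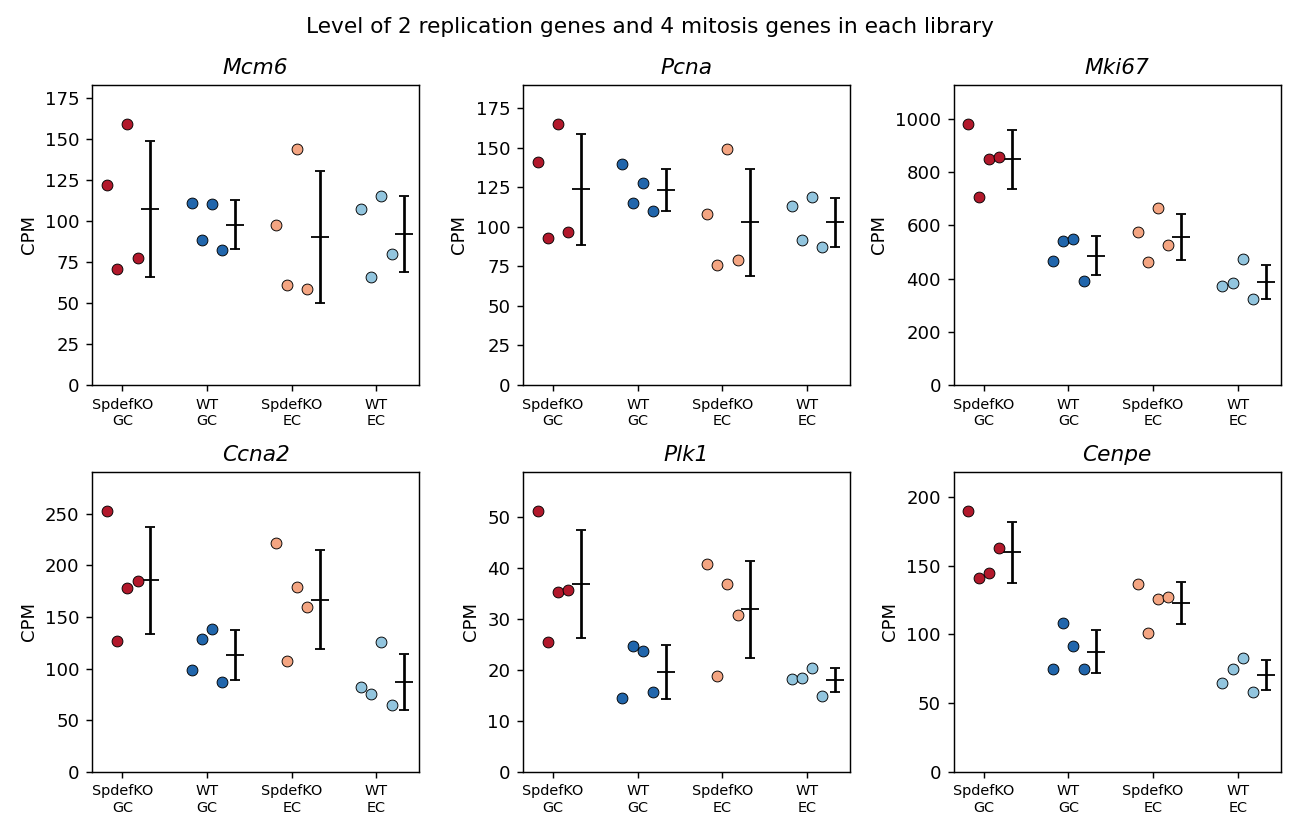
CPM of Mcm6 and Pcna (replication) and of Mki67, Ccna2, Plk1 and Cenpe (mitosis) in each library, with the mean and SD of the 4 libraries of a group to the right of its points. The SpdefKO points of Mcm6 and Pcna straddle the WT points, whereas those of Cenpe lie above all WT points in both fractions.

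The cyclins and their kinase come next. Ccna2, the cyclin of late S phase and G2, was at 253, 127, 178 and 185 CPM in SpdefKO_GC, against 98.2, 129, 138 and 87.1 CPM in WT_GC. It was at 222, 107, 179 and 160 CPM in SpdefKO_EC, against 82.0, 75.7, 126 and 64.6 CPM in WT_EC. In both fractions 3 SpdefKO libraries lay above all WT libraries and the remaining one, S5 or S6, lay inside the WT range. Ccna2 rose 1.98-fold in the other epithelium (0.99 ± 0.25, adjusted p = 0.0199), and in goblet cells its estimate was 0.71 ± 0.25 (adjusted p = 0.0577). The call was lost without S4, S8, S10, S12 or S17, with adjusted p-values of up to 0.0799. Ccna2 and Top2a, listed here with mitosis, are already active in S phase. Ccnb2, a mitotic B-type cyclin, rose by 0.89 ± 0.22 in the other epithelium, a call lost without S4, S10 or S17, and had an estimate of 0.62 ± 0.22 in goblet cells (adjusted p = 0.0555). Ccnb1, its relative, and Cdk1, the kinase that these cyclins activate, were called in neither fraction, with estimates of 0.59 and 0.33 in goblet cells and of 0.79 and 0.66 in the other epithelium.

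Of the spindle checkpoint genes, Bub1b, which encodes the checkpoint protein BubR1, was at 99.8, 51.8, 79.6 and 71.4 CPM in SpdefKO_GC, against 45.6, 60.1, 61.4 and 37.9 CPM in WT_GC. It was at 79.3, 44.8, 77.3 and 62.1 CPM in SpdefKO_EC, against 45.6, 35.2, 54.1 and 30.7 CPM in WT_EC. Only S5 and S6 fell within the WT ranges, and the estimates, 0.55 ± 0.23 and 0.72 ± 0.23, missed the threshold in both fractions (adjusted p = 0.0963 in goblet cells and 0.0523 in the other epithelium). Cdc20, which activates the anaphase-promoting complex once the checkpoint is satisfied, rose by 0.88 ± 0.23 in the other epithelium, a call lost without S4, S10, S12 or S17, and had an estimate of 0.53 in goblet cells. Bub1, a checkpoint kinase, was called in neither fraction, with estimates of 0.50 in goblet cells and 0.71 in the other epithelium.

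Plk1, the polo-like kinase of mitotic entry and spindle formation, was at 51.3, 25.5, 35.3 and 35.7 CPM in SpdefKO_GC, against 14.5, 24.7, 23.8 and 15.6 CPM in WT_GC. It was at 40.9, 18.9, 37.0 and 30.9 CPM in SpdefKO_EC, against 18.3, 18.5, 20.5 and 14.8 CPM in WT_EC. The goblet cell groups did not overlap, and in the other epithelium only S6 lay within the WT range. Plk1 rose 1.86-fold in goblet cells (0.90 ± 0.24, adjusted p = 0.0157) and 1.83-fold in the other epithelium (0.87 ± 0.24, adjusted p = 0.0299). In goblet cells the call was lost without SpdefKO_GC S3 (adjusted p = 0.0513) or WT_GC S9 (adjusted p = 0.05). In the other epithelium it was lost without any one of 6 of the libraries, S4, S8, S20, S10, S12 or S17, with adjusted p-values of up to 0.112.

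Aurka, a kinase of centrosomes and spindle poles, was at 58.5, 27.2, 37.8 and 40.2 CPM in SpdefKO_GC, against 21.8, 29.5, 29.7 and 19.5 CPM in WT_GC. It was at 48.4, 22.0, 39.4 and 29.3 CPM in SpdefKO_EC, against 17.8, 17.6, 24.7 and 17.1 CPM in WT_EC. S5 and S6 lay inside the WT ranges and the other SpdefKO libraries above them. Aurka rose 1.87-fold in the other epithelium (0.90 ± 0.25, adjusted p = 0.0284), with an estimate of 0.69 ± 0.24 in goblet cells (adjusted p = 0.0562). The call in the other epithelium was lost without S4, S8, S10, S12 or S17, with adjusted p-values of up to 0.112.

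Birc5, or survivin, works with the kinase Aurkb in the complex that corrects chromosome attachment. Birc5 was at 67.2, 31.0, 42.9 and 47.3 CPM in SpdefKO_GC, against 26.9, 35.1, 38.9 and 20.9 CPM in WT_GC. It was at 53.5, 26.5, 47.1 and 36.1 CPM in SpdefKO_EC, against 23.5, 21.7, 31.4 and 16.6 CPM in WT_EC. S5 and S6 lay inside the WT ranges and the other SpdefKO libraries above them. Neither gene was called, with estimates for Birc5 of 0.62 in goblet cells and 0.86 in the other epithelium (adjusted p = 0.0503), and for Aurkb of 0.23 and 0.58.

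Both kinetochore genes rose in both fractions. Cenpe, a kinesin that moves chromosomes to the spindle equator, was at 190, 141, 145 and 163 CPM in SpdefKO_GC, against 75.0, 108, 91.9 and 74.9 CPM in WT_GC. It was at 137, 101, 126 and 127 CPM in SpdefKO_EC, against 64.5, 75.1, 82.8 and 58.3 CPM in WT_EC. In both fractions every SpdefKO library lay above every WT library. Cenpe rose 1.82-fold in goblet cells (0.87 ± 0.13, adjusted p = 0.000162) and 1.80-fold in the other epithelium (0.85 ± 0.13, adjusted p = 0.000572), and it was called under each alternative setting and with each library left out in turn. Cenpf, a large kinetochore protein, was at 191, 134, 138 and 176 CPM in SpdefKO_GC, against 73.7, 104, 102 and 76.4 CPM in WT_GC. It was at 130, 99.0, 116 and 128 CPM in SpdefKO_EC, against 61.7, 85.0, 98.0 and 65.2 CPM in WT_EC. Its groups did not overlap in either fraction, and it rose by 0.84 ± 0.16 in goblet cells and 0.65 ± 0.16 in the other epithelium (adjusted p = 0.00135 and 0.0134). Without SpdefKO_EC S4 the adjusted p in the other epithelium was 0.0511.

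Of the spindle assembly genes, Kif11, the kinesin that pushes spindle poles apart, was at 195, 94.0, 159 and 146 CPM in SpdefKO_GC, against 96.7, 113, 115 and 73.1 CPM in WT_GC. It was at 150, 77.6, 155 and 110 CPM in SpdefKO_EC, against 84.7, 68.5, 103 and 60.8 CPM in WT_EC. Its estimates of 0.56 and 0.68 were not called (adjusted p = 0.115 in goblet cells and 0.0826 in the other epithelium). Nusap1, a protein that bundles spindle microtubules, was at 111, 48.3, 77.8 and 87.9 CPM in SpdefKO_GC, against 44.9, 53.7, 53.8 and 42.4 CPM in WT_GC. It was at 93.3, 41.2, 69.0 and 58.4 CPM in SpdefKO_EC, against 31.9, 34.8, 49.7 and 27.8 CPM in WT_EC. For both genes only S5 and S6 lay within the WT ranges. Nusap1 rose 1.88-fold in the other epithelium (0.91 ± 0.26, adjusted p = 0.0335), where the call was lost without S4, S8, S10, S12 or S17 with adjusted p-values of up to 0.126, and its estimate in goblet cells was 0.73 ± 0.26 (adjusted p = 0.056). Tpx2, which activates Aurka at the spindle, rose by 0.75 ± 0.21 in goblet cells and 0.85 ± 0.21 in the other epithelium, calls lost without S3, S9 or S18 in goblet cells and without S4 or S17 in the other epithelium, with adjusted p-values of up to 0.0661.

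Prc1, which crosslinks the central spindle, was at 138, 70.9, 116 and 106 CPM in SpdefKO_GC, against 62.3, 75.6, 75.5 and 50.4 CPM in WT_GC. It was at 113, 48.0, 102 and 72.5 CPM in SpdefKO_EC, against 54.1, 42.7, 64.9 and 40.5 CPM in WT_EC. S5 and S6 lay inside the WT ranges, and the estimates of 0.70 and 0.78 were not called (adjusted p = 0.0619 in goblet cells and 0.0582 in the other epithelium). Kif23, a kinesin of the central spindle whose library values are given after they were seen, was at 88.4, 59.0, 70.8 and 73.3 CPM in SpdefKO_GC, against 44.2, 55.2, 52.9 and 39.2 CPM in WT_GC. It was at 88.4, 55.5, 84.7 and 73.6 CPM in SpdefKO_EC, against 52.2, 50.1, 55.0 and 40.4 CPM in WT_EC. Every SpdefKO library lay above every WT library of its fraction, and Kif23 rose by 0.60 ± 0.15 in goblet cells and 0.66 ± 0.15 in the other epithelium (adjusted p = 0.00805 and 0.00823). Kif20a, another kinesin of cytokinesis, was called in neither, with estimates of 0.51 in goblet cells and 0.69 in the other epithelium. Exons of Mcm7, Gins2, Ccne2, Ccna2, Cdc20, Nusap1, Kif20a and Prc1 overlap those of a gene on the opposite strand, and no source used here gives the strand setting of the counting, so their values are uncertain.

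**Figure D3:**
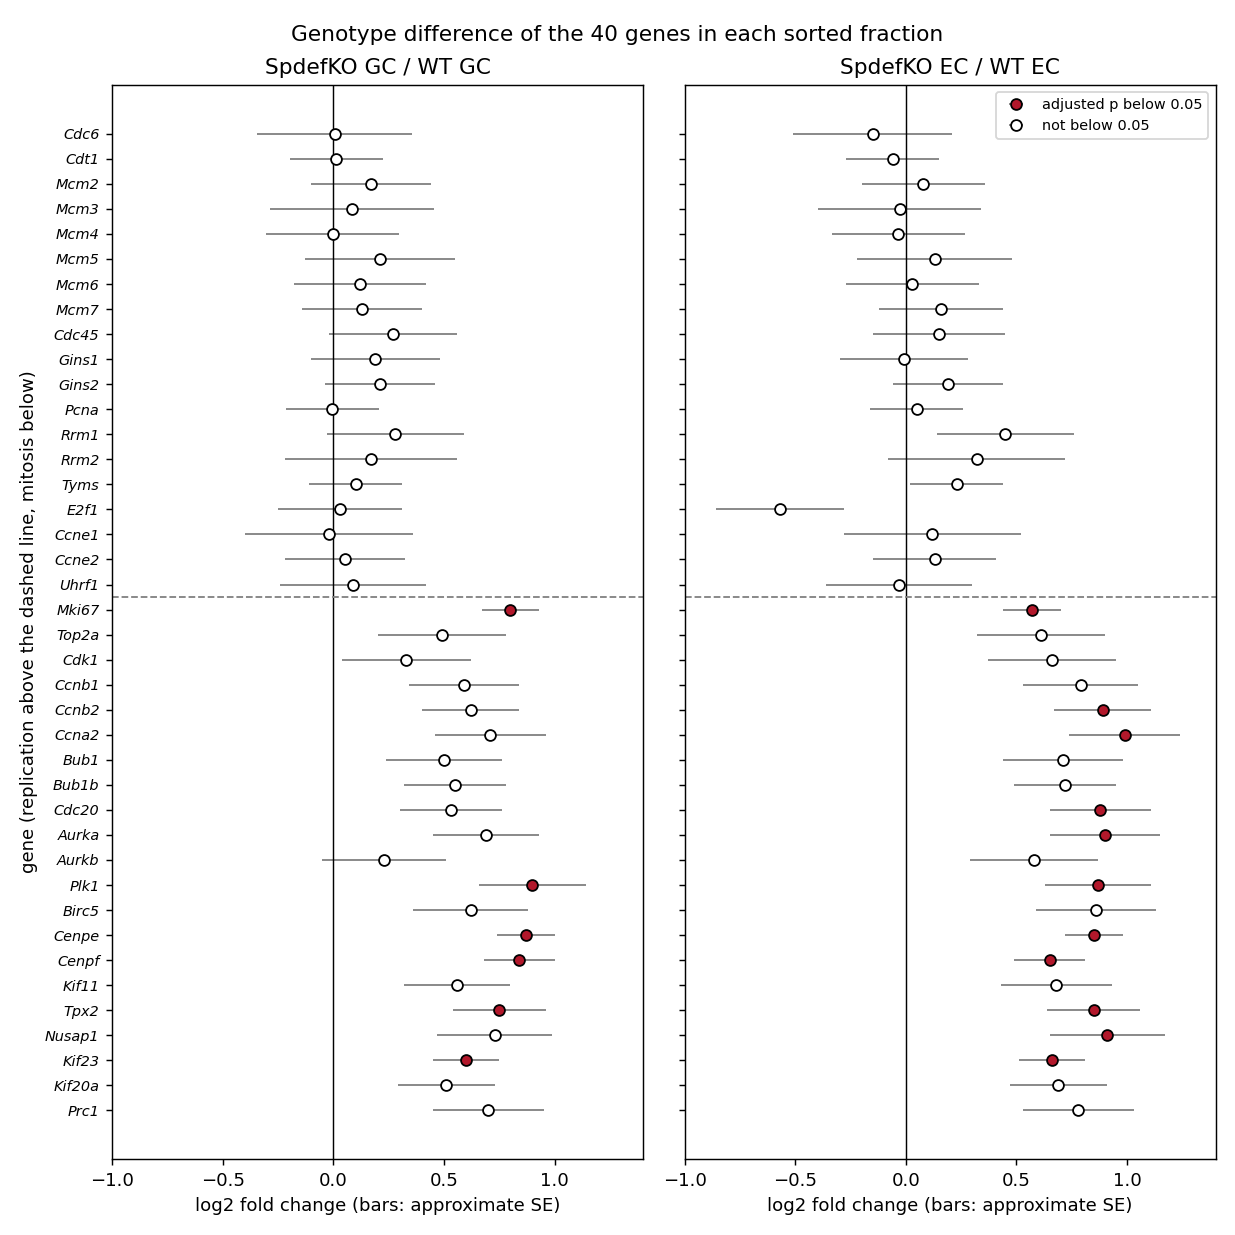
Log2 fold change of each gene with its approximate standard error, SpdefKO_GC over WT_GC on the left and SpdefKO_EC over WT_EC on the right, with filled points for genes called. Replication genes gather around 0 and mitosis genes lie to its right in both panels, and the called genes are 6 on the left and 11 on the right.

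The number of genes called depended on single libraries. In goblet cells the count of 6 became 14 without SpdefKO_GC S5, 10 without SpdefKO_EC S4 or S6, and 4 without SpdefKO_GC S3 or WT_GC S9. In the other epithelium the count of 11 became 18 without SpdefKO_EC S6, 17 without SpdefKO_GC S5, 7 without SpdefKO_EC S8, 6 without WT_EC S12, 5 without WT_EC S10, 4 without WT_EC S17 and 3 without SpdefKO_EC S4. Without S17 to S20, the counts were 3 in goblet cells (Mki67, Cenpe and Cenpf) and 1 in the other epithelium (Cenpe), with median log2 fold changes of the mitosis genes of 0.51 and 0.71. Within S17 to S20 each group had 1 library, so no test was made there. Those libraries had mitosis medians, on the relative scale defined next, of 0.51 in SpdefKO_GC S19 and -0.47 in WT_GC S18, and of 0.13 in SpdefKO_EC S20 and -0.78 in WT_EC S17.

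To set the lists against each other within a library, each gene's log2(CPM + 0.5) was taken relative to its mean over the 16 libraries, and the median of each list was read. The mitosis median was 0.89, -0.02, 0.48 and 0.51 in SpdefKO_GC, against -0.30, 0.07, 0.08 and -0.47 in WT_GC. The replication median was 0.52, -0.45, 0.76 and -0.19 in SpdefKO_GC, against 0.30, 0.00, 0.27 and -0.13 in WT_GC. Replication medians of the SpdefKO_GC libraries thus lay on both sides of the WT_GC range, while 3 of 4 mitosis medians lay above it.

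In the other epithelium the mitosis median was 0.58, -0.35, 0.48 and 0.13 in SpdefKO_EC, against -0.49, -0.62, -0.07 and -0.78 in WT_EC. The replication median was 0.07, -0.70, 0.55 and -0.57 in SpdefKO_EC, against 0.15, -0.42, 0.14 and -0.28 in WT_EC. The pattern was that of goblet cells, with S6 the low library of both lists.

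The mitosis median minus the replication median was 0.37, 0.43, -0.28 and 0.70 in SpdefKO_GC, against -0.60, 0.07, -0.18 and -0.34 in WT_GC. It was 0.51, 0.36, -0.07 and 0.70 in SpdefKO_EC, against -0.64, -0.20, -0.21 and -0.50 in WT_EC. In the other epithelium every SpdefKO library had the larger difference, whereas among goblet cells S7, the library richest in replication transcripts, lay inside the WT_GC range. No test was made on these medians, since the genes were chosen with earlier results of these data known.

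**Figure D4:**
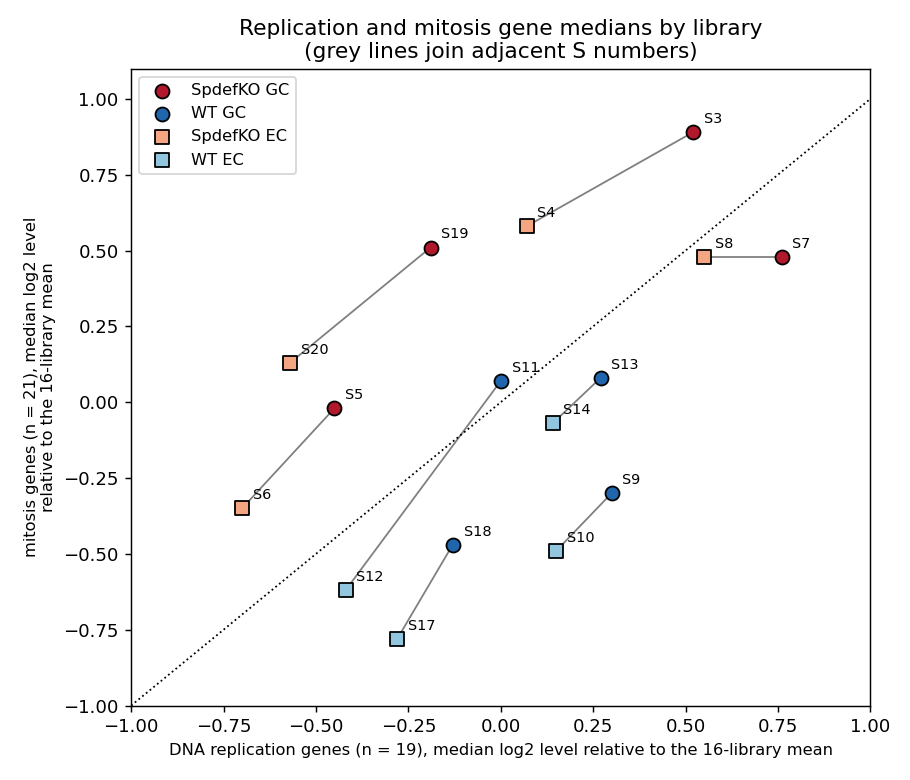
Median relative log2 level of the 21 mitosis genes (vertical axis) against that of the 19 replication genes (horizontal axis) in each library, with a dotted line of equality. Grey lines join goblet cell and epithelial libraries in the pairs of adjacent S numbers listed further on. All SpdefKO libraries except S7 and S8 lie above the dotted line and all WT libraries except S11 below it, and the SpdefKO libraries are spread widest along the horizontal axis.

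Other genes of the same processes were counted in lists that were also chosen with earlier results known. Beside these counts, 10.4% of all genes tested were called higher and 11% lower in goblet cells. In the other epithelium the shares were 6.09% higher and 6.54% lower. Of 65 further mitosis genes, 29 rose and none fell in SpdefKO_GC against WT_GC, with a median log2 fold change of 0.53, and 27 rose and none fell in SpdefKO_EC against WT_EC, with a median of 0.61. The largest were Cit, the citron kinase of cytokinesis, at 40.7 ± 3.56 CPM in SpdefKO_GC and 19 ± 2.92 CPM in WT_GC (1.09 ± 0.11, adjusted p = 1.25e-06), and Ube2c, the ubiquitin-conjugating enzyme of the anaphase-promoting complex, at 44.4 ± 13.3 CPM in SpdefKO_EC and 21.9 ± 4.96 CPM in WT_EC (1.07 ± 0.23, adjusted p = 0.00719). Troap, a spindle-associated protein, rose by 0.88 ± 0.21 in goblet cells, and Cenpa, the centromeric histone H3 variant, by 1.00 ± 0.21 in the other epithelium.

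Of 48 further genes of replication and S phase, none rose and 1 fell in SpdefKO_GC against WT_GC, with a median of 0.16, and 2 rose and none fell in SpdefKO_EC against WT_EC, with a median of 0.11. The shares over all genes were 10.4% higher and 11% lower in goblet cells, and 6.09% and 6.54% in the other epithelium. The gene that fell was Rfc1, the large subunit of the clamp loader, at 86.3 ± 9.4 CPM in SpdefKO_GC and 106 ± 11 CPM in WT_GC (-0.30 ± 0.09, adjusted p = 0.0241). The genes that rose in the other epithelium were Dbf4, the activating subunit of the kinase that fires origins (0.65 ± 0.15), and Orc1, a subunit of the origin recognition complex (0.32 ± 0.08). None of 54 tested histone cluster genes was called in either genotype comparison, although their median log2 fold change was 0.23 in goblet cells and 0.53 in the other epithelium. Unadjusted p-values were under 0.05 for 2 of them in goblet cells (3.70%, against 34.5% of all genes) and for 16 in the other epithelium (29.6%, against 28.1% of all genes).

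Genes that act in G1 and at cell cycle exit were called in both directions. Of 21 G1 cyclins, kinases and pocket proteins, 5 rose and 1 fell in SpdefKO_GC against WT_GC, and none rose and 1 fell in SpdefKO_EC against WT_EC. Over all genes, 10.4% were called higher and 11% lower in goblet cells, and 6.09% higher and 6.54% lower in the other epithelium. Myc, a transcription factor that promotes growth, rose to 56.4 ± 10.2 CPM in SpdefKO_GC, against 36 ± 6.81 CPM in WT_GC (0.64 ± 0.14, adjusted p = 0.00402). E2f8, a repressor E2F, rose by 0.73 ± 0.25 there, and Cdk2, the partner of cyclin E, fell by 0.44 ± 0.14 on the log2 scale. Cdk6, a G1 kinase, was at 11.1 ± 1.62 CPM in SpdefKO_EC and 19.4 ± 3.62 CPM in WT_EC (-0.75 ± 0.15, adjusted p = 0.00355). Of 13 tested inhibitors and exit genes, 2 rose in goblet cells, Ccng2 (0.51 ± 0.10) and Cdkn2d (0.49 ± 0.15), and none fell. In the other epithelium Cdkn1a, the inhibitor p21, rose by 0.41 ± 0.13 and Ccng1 by 0.43 ± 0.10, while Cdkn1c fell by 0.58 ± 0.15 on the log2 scale.

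Summed markers of crypt cells, of other cell types and of interferon responses were also read by genotype. No test was made on these sums, some of their ranges overlapped between the genotypes, and a sum is weighted towards its most abundant genes. Summed stem and crypt base markers, 14 of 14 in the table, lay at 1200–1270 CPM in SpdefKO_GC and 1760–2080 in WT_GC, and at 811–909 CPM in SpdefKO_EC and 900–1070 in WT_EC, with Olfm4 at 0 in all WT_EC libraries. Interferon response genes, 16 of 16, summed to 217–515 CPM in SpdefKO_GC and 148–218 in WT_GC, and to 335–789 CPM in SpdefKO_EC and 300–326 in WT_EC. By library, in the order used above, the interferon sums were 342, 515, 251 and 217 CPM in SpdefKO_GC and 765, 789, 461 and 335 CPM in SpdefKO_EC. Enteroendocrine markers, 12 of 12, summed to 234–340 CPM in SpdefKO_GC and 96.8–137 in WT_GC, and to 248–408 CPM in SpdefKO_EC and 557–766 in WT_EC. Immune markers, 12 of 13 in the table, summed to 7.36–9.05 CPM in SpdefKO_GC and 4.01–5.01 in WT_GC, and to 8.13–17.2 CPM in SpdefKO_EC and 12.2–14.8 in WT_EC, with Cd3g at 0 in all WT_GC libraries. Stromal markers, 8 of 8, summed to 8.19–10.6 CPM in SpdefKO_GC and 2.91–3.45 in WT_GC, and to 8.33–18 CPM in SpdefKO_EC and 14.4–31.0 in WT_EC, with Cdh5 at 0 in all SpdefKO_EC libraries. Both sums were thus higher in every SpdefKO_GC library than in any WT_GC library, and overlapped in the other epithelium. Absorptive markers, 13 of 13, summed to 1160–1420 CPM in SpdefKO_GC and 919–1060 in WT_GC, and to 8890–11000 CPM in SpdefKO_EC and 9580–10500 in WT_EC. Deep crypt secretory markers, 4 of 4, summed to 1390–1450 CPM in SpdefKO_GC and 1870–2710 in WT_GC, and to 25.5–32.1 CPM in SpdefKO_EC and 32.9–55.8 in WT_EC. By marker, 2 of their log2 fold changes were above 0 and 2 below in goblet cells, with a median of 0.14. In the other epithelium 1 was above 0 and 3 below. Tuft cell markers, 7 of 8, summed to 19–44.2 CPM in SpdefKO_GC and 35.5–47.7 in WT_GC, and to 8.43–14.2 CPM in SpdefKO_EC and 34.0–71.0 in WT_EC. The part of these cell types and of the interferon response in the mitosis result was not tested.

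Between the sorted fractions 1 of the 40 genes was called, in 1 of the genotypes, when libraries were treated as unrelated. In WT_GC against WT_EC none was called, where 31.0% of all genes were called higher and 30.1% lower. None had an unadjusted p under 0.05, DESeq2 and limma-voom also called none, and the lowest adjusted p was 0.107, for Mki67. The median log2 fold change was 0.28 for mitosis genes and 0.12 for replication genes, beside 0.051 for all genes. In SpdefKO_GC against SpdefKO_EC, where 28% of all genes were called higher and 28.4% lower, Mki67 alone was called, at 848 ± 111 CPM in SpdefKO_GC and 556 ± 86.1 CPM in SpdefKO_EC (0.48 ± 0.13, adjusted p = 0.00434). Of the 13 inhibitors and exit genes, 3 were higher and 5 lower in WT_GC against WT_EC. Genes at large were called about as often, 31.0% higher and 30.1% lower. Unadjusted p-values were under 0.05 for 61.5% of the 13, against 64.5% of all genes. Lower were, among others, Ccng2, an atypical cyclin of non-dividing cells, at 56.0 ± 6.92 CPM in WT_GC and 497 ± 36.9 CPM in WT_EC (-3.23 ± 0.11, adjusted p = 1.08e-14) and Cdkn2b, the inhibitor p15, at 17.7 ± 3.22 CPM in WT_GC and 70.5 ± 8.29 CPM in WT_EC (-2.07 ± 0.15). Higher were, among others, Trp53inp1, a p53 target, at 545 ± 99.5 CPM in WT_GC and 154 ± 6.35 CPM in WT_EC (1.74 ± 0.19, adjusted p = 9.17e-07), and Ccng1, another p53 target, at 220 ± 18.3 CPM in WT_GC and 144 ± 21.8 CPM in WT_EC (0.54 ± 0.10).

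The genotype difference in goblet cells minus that in the other epithelium was called for none of the 40 genes, where 4.88% of all genes were called higher and 4.65% lower. None had an unadjusted p under 0.05, DESeq2 and limma-voom called none, and the lowest adjusted p was 0.396, for E2f1. The median of this difference was -0.18 on the log2 scale for mitosis genes (0.02 without SpdefKO_EC S4) and 0.07 for replication genes, which ran from -0.14 to 0.33 with 1 library left out. Mki67 had an estimate of 0.23 ± 0.18 and Cenpe of 0.015 ± 0.19. Outside the 40, Cit was the 1 gene called in this comparison among the 65 further mitosis genes, at 0.69 ± 0.16 (adjusted p = 0.00879).

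Each goblet cell library has an epithelial library of its genotype at the adjacent S number (S3 with S4, S5 with S6, S7 with S8, S19 with S20, S9 with S10, S11 with S12, S13 with S14, and S18 with S17). S5, S7, S11 and S13 also lie next to another epithelial library of their genotype, S4, S6, S10 and S12. These were counted among the other pairs, and adjacent below means the 8 pairs listed. The labels do not say that adjacent numbers share a mouse. Each gene's deviation from its group mean was correlated across genes between the goblet cell and epithelial libraries of a genotype, as a description, since genes are not independent replicates. Over all genes tested, r was 0.13 to 0.67 for the 8 adjacent pairs (median 0.46) and -0.46 to 0.31 for the 24 other pairs (median -0.11). Over the 40 genes, r was 0.27 to 0.94 for adjacent pairs (median 0.72) and -0.89 to 0.49 for the others (median -0.26). For each gene the deviations within a group sum to 0, so values below 0 among the other pairs are partly built in. By both measures, each of the 8 goblet cell libraries was most like the epithelial library it is listed with. In the reverse direction this held for 8 of 8 epithelial libraries over all genes and for 6 of 8 over the 40 genes. With the other neighbour, r over all genes was -0.32 for S5, -0.45 for S7, -0.02 for S11 and -0.26 for S13.

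**Figure D5:**
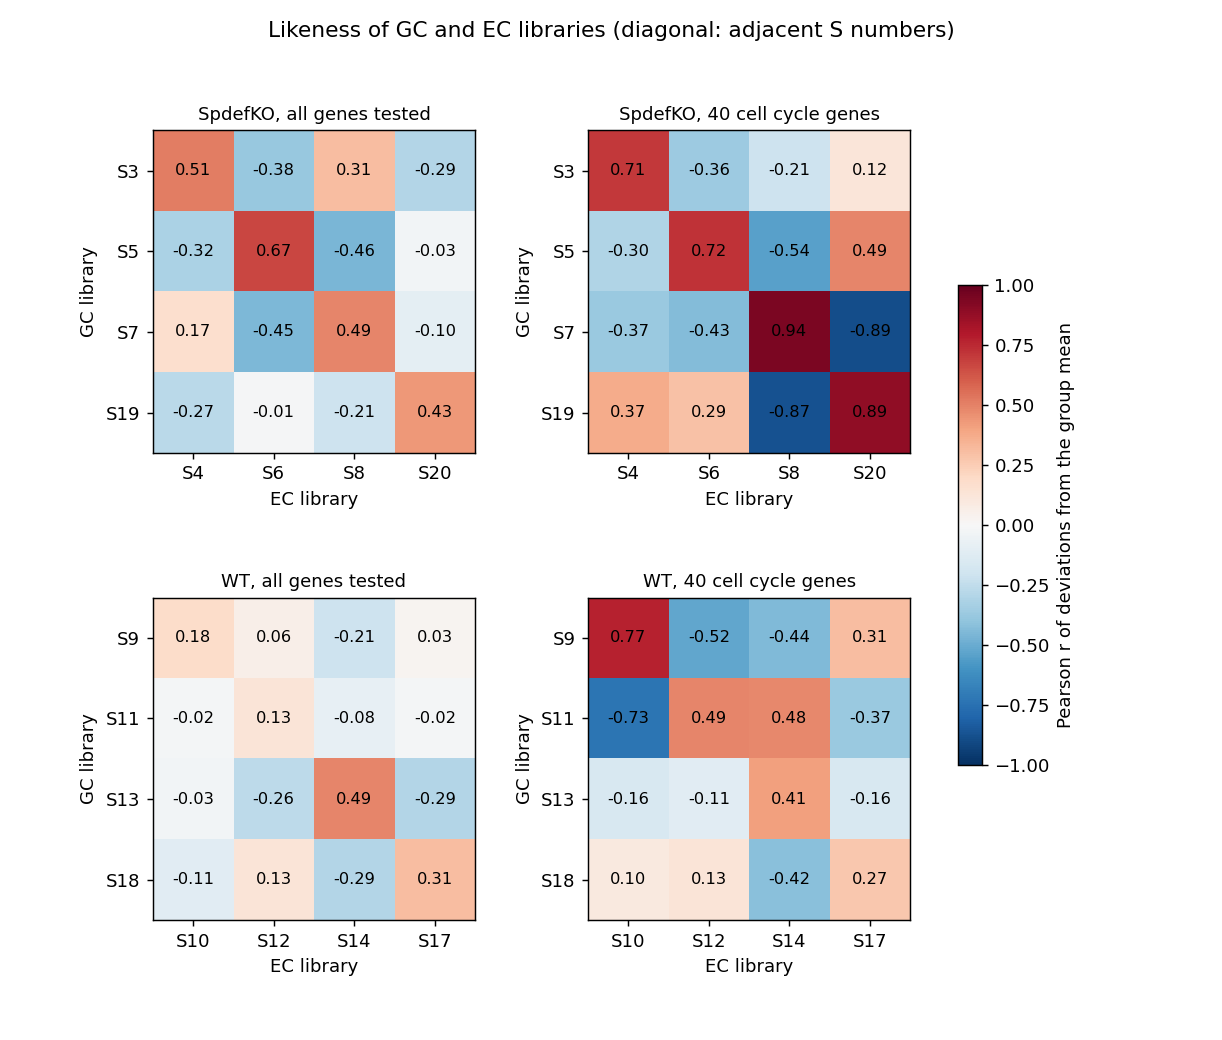
Pearson r of deviations from the group mean between goblet cell libraries (rows) and epithelial libraries (columns) of a genotype, over all genes tested (left) and over the 40 cell cycle genes (right), with SpdefKO above and WT below. The diagonal of each panel holds the listed pairs of adjacent S numbers and has the highest value of every row. Among the cell cycle genes it was 0.94 for S7 and S8 and 0.89 for S19 and S20.

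The lists were also read separately. The replication genes' median deviation from the group mean had the same sign in both libraries of all 8 adjacent pairs, for instance 0.54 in S7 and 0.69 in S8, and -0.62 in S5 and -0.51 in S6. For the mitosis genes the signs were shared in 4 of 8 pairs, including 0.45 in S3 and 0.44 in S4, and -0.50 in S5 and -0.57 in S6. The pairs whose mitosis signs differed had deviations between -0.14 and 0.24, and included S7 with S8 and S19 with S20. Replication deviations of like size, such as 0.2 in S9 and -0.1 in S11, were found in pairs that shared a sign.

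Within most adjacent pairs the goblet cell library held more of both kinds of transcript. In CPM, the median gene was higher in the goblet cell library in 8 of 8 pairs, by 0.09 to 0.41 on the log2 scale for replication genes and by 0.04 to 0.71 for mitosis genes. With TMM scaling, whose factors were 1.018–1.06 in SpdefKO_GC against 0.944–0.962 in SpdefKO_EC, and 1.02–1.048 in WT_GC against 0.955–1.004 in WT_EC, it was higher in 7 of 8 pairs for each list. There the exception was S7 with S8, at -0.02 for replication genes and -0.12 for mitosis genes. For replication genes the difference was 0.04 in S9 with S10 and 0.05 in S13 with S14, with 12 and 10 of the 19 genes higher in the goblet cell library. The median log2 fold change of all genes in WT_GC against WT_EC was 0.051. The widest gap was between S11 and S12, where all 21 mitosis genes were higher in the goblet cell library and their median difference was 0.57.

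When the adjacent numbers were entered as a block, more of the 40 genes passed the threshold between fractions, and so did more of all genes tested. In WT_GC against WT_EC, 25 of the 40 genes were then called higher, 7 of replication and 18 of mitosis, and none lower, while 37.5% of all genes were called higher and 33.9% lower. Cdk1 (0.48 ± 0.07) and Rrm2 (0.48 ± 0.09) had the largest of these differences. In SpdefKO_GC against SpdefKO_EC, 14 were called higher, 8 of replication and 6 of mitosis, and Kif23 lower (-0.17 ± 0.07). Of all genes 34.4% were called higher and 33% lower, so the 40 were called higher about as often as genes at large. E2f1 (0.66 ± 0.17) and Mki67 (0.49 ± 0.07) had the largest differences of the 14. For the difference of the genotype differences, Aurkb (-0.34 ± 0.12) and Cdk1 (-0.32 ± 0.10) were called lower and none higher, while 12.8% of all genes were called higher and 13% lower.

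For the genotype comparisons such a block cannot be fitted, because each pair of libraries has 1 genotype. A limma-voom fit with a correlation between adjacent libraries, estimated at 0.442, called 13 of the mitosis genes higher in SpdefKO_GC against WT_GC and 17 in SpdefKO_EC against WT_EC. Of all genes it called 10.5% and 6.25% higher, and the same fit without the correlation called 8 and 15 of the mitosis genes. It called no replication gene in either comparison.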

How the data were processed

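RNA of sorted cells from mouse distal colon was sequenced in 16 libraries as paired-end, stranded, ribosome-depleted libraries, per the labels' protocols; goblet cell and epithelial RNA was purified on different columns (MinElute and Mini), so column and fraction cannot be told apart. The submitters' processing notes name STAR 2.4.0f, the build mm10, HTSeq 0.6.1p1, FastQC 0.11.2 and DESeq2 1.14, without settings. The deposited values are raw counts per gene, with no normalization. The 3 entries naming no gene, 47.1% to 54.7% of a library, were left out.

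CPM were computed over gene counts. Genes passing filterByExpr were tested with edgeR 4.0.16 (R 4.3.3) on counts with TMM factors, in a quasi-likelihood model of all 16 libraries (biological coefficient of variation 11.7%), with Benjamini-Hochberg adjustment over all 12915 genes tested. The standard error is the log2 fold change divided by the square root of F. Alternatives were other scalings, no filter, DESeq2 1.42.0, limma 3.58.1 (voom), fewer groups, a block of adjacent S numbers, and libraries left out. No 2 libraries of a group agreed within sampling noise. The test was checked on simulated data. Members and lists were chosen with earlier results of these data known. Named with values per library were, in each role group, the gene with the highest mean CPM, and in each comparison the 3 called genes with the largest change in each direction; of other lists, the 2 called genes with the largest change in each direction and a mean of at least 5 CPM were eligible. Exon lengths and overlaps come from GENCODE on GRCm38.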

Additional observations from a re-analysis of the deposited data

Results flagged for a closer look

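Aurka in WT_EC S14 was at 24.7 CPM, far from the other 3 WT_EC libraries, which lay at 17.1 to 17.8 CPM. It was the single such case among 76 groups of 4 libraries checked by Dixon's ratio of gap to range, where chance alone would mark about 5% of groups.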

How the results depend on the processing

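No called gene changed direction. Medians of lists changed sign when 1 library was left out: replication in SpdefKO_GC against WT_GC (0.10; -0.05 to 0.28) and in SpdefKO_EC against WT_EC (0.08; -0.19 to 0.24), both lists in SpdefKO_GC against SpdefKO_EC (mitosis 0.12; -0.09 to 0.26; replication 0.15; -0.05 to 0.50) and in the difference of the genotype differences (mitosis -0.18; -0.33 to 0.02; replication 0.07; -0.14 to 0.33). For SpdefKO_GC against WT_GC, 6 genes were called higher; DESeq2's test gave 17, a fit of these groups alone 10, limma-voom with correlated adjacent libraries 13 and the fit without S17 to S20 gave 3, and leaving out 1 library gave 4 to 14. For SpdefKO_EC against WT_EC, 11 were called higher; no filter gave 6, DESeq2 18, limma-voom with correlated adjacent libraries 17 and the fit without S17 to S20 gave 1, and leaving out 1 library gave 3 to 18, with 0 to 1 called lower. For WT_GC against WT_EC, 0 were called higher; upper-quartile scaling gave 2, library totals 1, a fit of these groups alone 1 and the block of adjacent numbers 25, and leaving out 1 library gave 0 to 1. For SpdefKO_GC against SpdefKO_EC, 1 was called higher; upper-quartile scaling gave 4, library totals 4 and the block 14, and leaving out 1 library gave 1 to 2, while called lower were 1 under the block and 0 to 1 with 1 library left out. The block called 2 lower for the difference of the genotype differences. The causes were not tested. Upper-quartile scaling and library totals moved the median of all genes to 0.136 and 0.129 in WT_GC against WT_EC and to 0.146 and 0.158 in SpdefKO_GC against SpdefKO_EC. Of the values for single genes and lists under alternatives, 2243 kept their side of the threshold, 84 passed it newly and 37 no longer passed. No paired analysis by replicate number was possible because the labels give the groups no shared numbers; the adjacent S numbers are a hint from the data, not from the design.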
